A study of Mus musculus with 12 samples.

Results

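Endometrium collected 8 h after mating with intact males was compared with endometrium of unmated females over the 8 arrays of those groups, which are 8 of the 12 arrays of the study. The other 4 arrays held endometrium of females mated with vasectomized males, whose seminal fluid lacks sperm and the secretions of testis and epididymis. Affymetrix Mouse Gene 1.0 ST arrays were used, and all values below are log2 signals deposited by the authors, so that a difference of 1 is a doubling. The comparison was described over the 23410 of 35556 transcript clusters (the probe groups of the array) that carry at least 1 gene symbol in the annotation. Where genes are counted or grouped, each gene was read through 1 cluster, that with the highest mean over all 12 arrays, which gave 19938 genes.

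All females were virgin CBAF1 mice, the first-generation offspring of CBA and C57Bl/6 parents, aged 9 to 16 weeks. The intact group had been caged late in the evening of pro-estrus with BALB/c males of 12 to 28 weeks that had no surgery, so that the mates differed from the females in strain. Controls never met a male. The labels call them estrus females, while the methods place their collection in the evening of pro-estrus, before the hour at which the other females were put with males. Hour of the day, cycle stage and mating therefore cannot be told apart in this comparison. Each array held RNA pooled from 4 females, 16 females per group, and the lining was scraped from the opened uterus, so that epithelium, stroma, vessels and leukocytes all contribute. Replicates are pools, and the spread between them is not that between single females.

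The lining of the mouse uterus is a single layer of epithelium over a stroma rich in vessels. Estrogen in pro-estrus drives its epithelial cells into division and its glands into secretion, and progesterone later takes over. Seminal fluid in the lumen meets that epithelium first, which answers with chemokines that draw neutrophils across it. Ion channels and water channels of the same cells set the volume and acidity of the luminal fluid.

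Median log2 signals of the 12 arrays lay between 7.25 and 7.32, and within a group no pair of arrays correlated below 0.983. Markers of uterine epithelium were read on all arrays of both groups, with list means of 11.33 to 11.53 in controls and 11.49 to 11.60 in the intact group over 17 genes. Stromal markers split the controls. Their mean over 16 genes was 9.43 and 9.42 on control arrays 1 and 2, but 8.59 and 8.56 on control arrays 3 and 4, with the intact arrays at 8.25 to 8.86. Blood endothelium markers split in the same way, at 8.34 and 8.27 against 7.61 and 7.57 over 16 genes. Many but not all calls and counts that changed with one of these pairs left out are marked below. Cldn4 and Ltf, given below as not called, were called higher without control arrays 1 and 2. Without control arrays 3 and 4, Hand2 and Col3a1 were called lower and Ifit1 higher. A call without such a mark was therefore not always the same with either pair left out. On whole tissue, fewer cells of a type and less RNA per cell cannot be told apart.

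Mating with intact males was followed by wide change in both directions. In limma, a transcript cluster was called when it differed by 1.5-fold or more and its p, adjusted by Benjamini-Hochberg, did not exceed 0.05. Of the clusters with a symbol, 607 were called higher (2.59%) and 471 lower (2.01%). Counted as 1 cluster per gene, 555 genes were called higher (2.78%) and 421 lower (2.11%), and these 2 shares are the background for every list below. The change was at least 2-fold for 203 of the genes called higher and 174 of those called lower, and at least 4-fold for 34 and 14. In 901 of the 976 genes called, the 4 intact arrays lay entirely to one side of the 4 controls. The calls were made on these same arrays, so this count is not separate support for them. Leaving out the cytokine list still left 523 genes higher and 419 lower. The median log2 fold-change over all genes was 0.01.

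**Figure D1:**
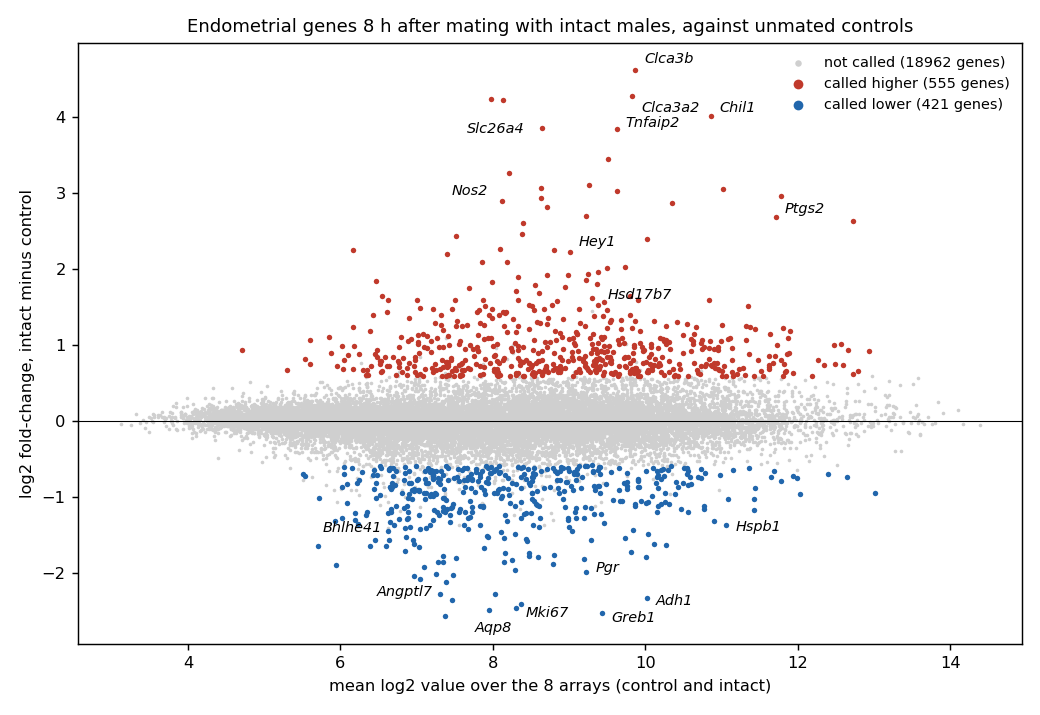
Each point is a gene, with its mean log2 value over the 8 arrays on the x axis and its log2 fold-change, intact minus control, on the y axis. Red points are the 555 genes called higher and blue points the 421 called lower; the changes upward reach 4.62 for Clca3b and those downward reach below -2 for Greb1, Mki67, Aqp8, Angptl7 and Adh1.

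Excluding cytokines, the greatest increases among genes whose groups did not overlap were those of Clca3b, Clca3a2, Chil1, Slc26a4, Tnfaip2, Tnip3, Clca3a1, Dmbt1, Sprr2b, Sprr2d, Nos2, Slc5a8, Cfap69, Tnfaip3 and Ptgs2, with log2 fold-changes from 4.62 down to 2.69. Among the 15 greatest decreases, Greb1 and Pgr belong to the response to estrogen, Aqp8 is a water channel, Adh1 oxidizes alcohols including retinol, and Angptl7 is a secreted protein of the angiopoietin-like family. The other 10, namely Mki67, Nusap1, Prr11, Kif11, Ncapg, Knl1, Prc1, Plk1, Cenpe and Hmmr, serve cell division, and the 15 log2 fold-changes ran from -2.52 to -1.89. Kif11 and Plk1 lost their calls without control arrays 3 and 4. Angptl7 varied widely among the controls, with a mean of 8.64 ± 1.28 (SD, n = 4) and array 2 lowest at 6.91, against 6.26, 6.16, 6.23 and 6.54 in the intact group, and without control arrays 3 and 4 it missed the threshold (limma adjusted p = 0.0570). Cfap69, named for cilia and flagella, stood at 7.58, 8.12, 6.93 and 6.57 in controls and at 10.30, 10.34, 9.95 and 9.87 in the intact group, a 7.06-fold rise (SE 0.27 on the log2 scale, limma adjusted p = 4.22e-05).

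**Figure D2:**
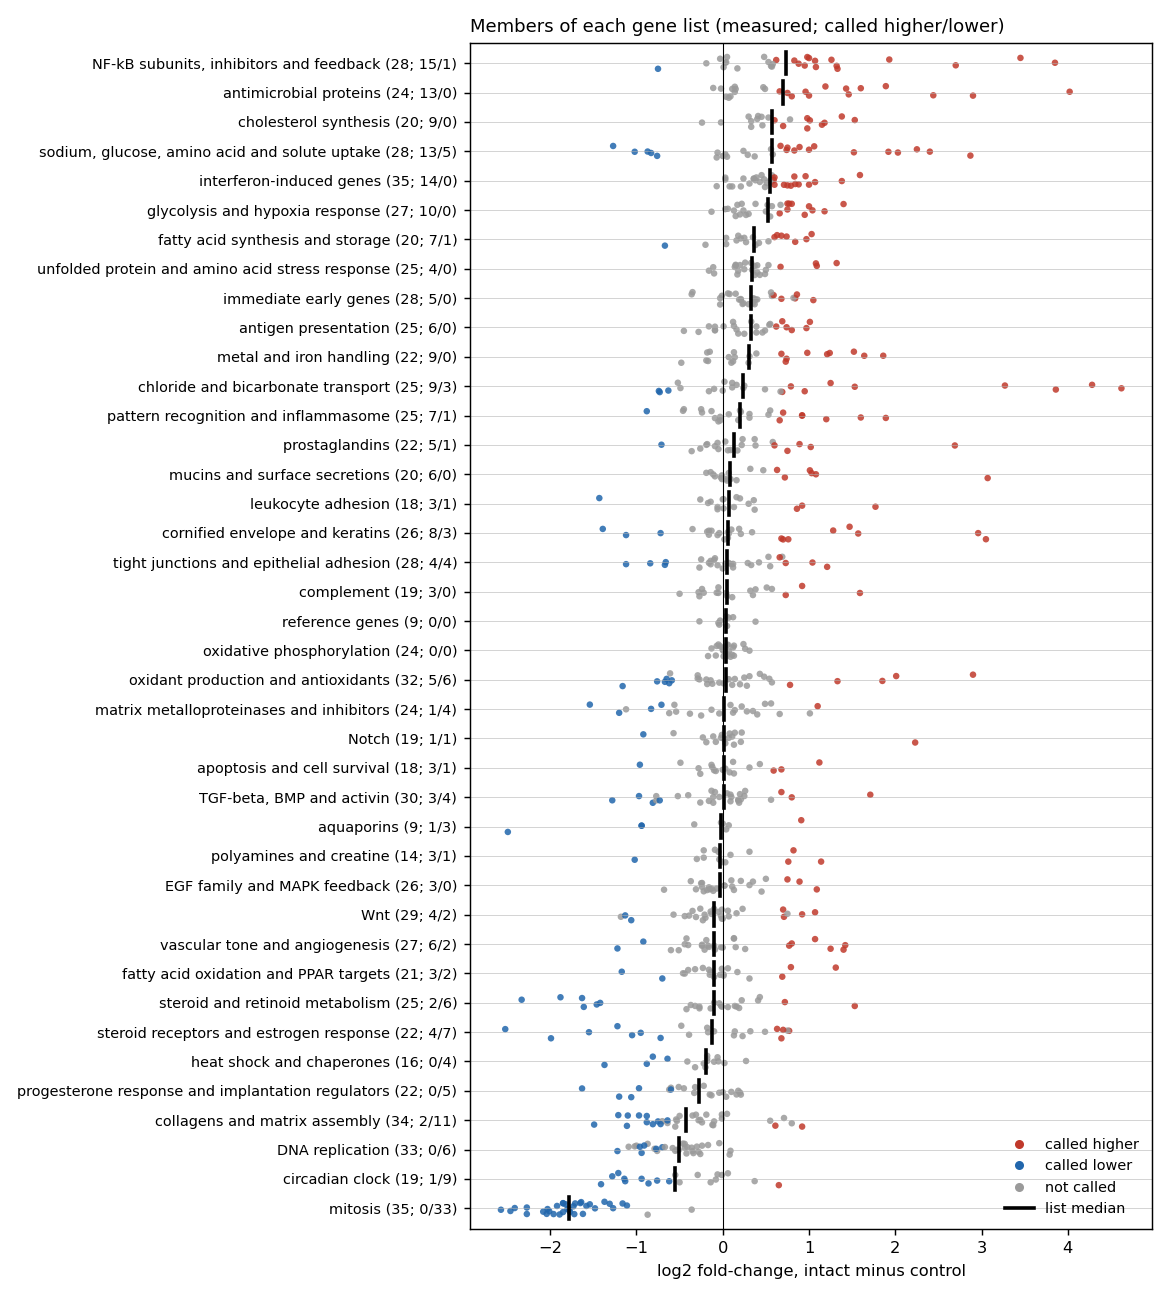
Each row is a gene list with, in parentheses, the number of measured genes and those called higher and lower; points are members at their log2 fold-change, intact minus control, and black bars are list medians. Medians run from -1.78 for mitosis to 0.73 for NF-κB, and many lists with medians near 0 hold called members on both sides.

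Genes for chloride and bicarbonate transport rose in 9 of 25 and fell in 3, against backgrounds of 2.78% and 2.11%. Clca proteins are secreted or surface proteins that regulate calcium-activated chloride conductance in mucous epithelia. Clca3b read 7.52, 8.54, 7.31 and 6.86 on the 4 control arrays and 12.12, 12.66, 12.11 and 11.82 on the 4 intact arrays. This 24.6-fold rise (log2 fold-change 4.62, SE 0.31, limma adjusted p = 4.65e-06) was the largest of any gene. Clca3a2 rose 19.4-fold (SE 0.23) and Clca3a1 9.65-fold (SE 0.16), but the 3 genes are near-identical copies, so the array may not separate them. Slc26a4, the anion exchanger pendrin, read 6.38, 8.38, 6.30 and 5.82 in controls and 10.61, 10.87, 10.18 and 10.64 after mating. Control array 2 lay above the other controls for this gene and still below the lowest intact array. Slc26a9, a chloride channel of the same family, rose 2.37-fold (limma adjusted p = 8.62e-05), and Clic5 rose 2.88-fold. Cftr, the chloride channel of this epithelium that is activated through cAMP, was not called. Its log2 fold-change was -0.16 (SE 0.11, limma adjusted p = 0.425), with overlapping groups. Car12, a surface carbonic anhydrase named after its values were seen, moved the other way at 13.06, 12.91, 13.17 and 12.90 in controls and 12.36, 12.20, 12.26 and 12.30 after mating, a 1.66-fold fall.

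Uptake of sodium, sugars and amino acids had 13 of 28 genes higher and 5 lower, with a median log2 fold-change of 0.57. Slc5a8, which couples sodium to lactate and short-chain fatty acids, read 9.14, 9.60, 8.88 and 8.01 in controls and 11.89, 11.89, 11.60 and 11.73 in the intact group (7.32-fold, SE 0.26, limma adjusted p = 2.58e-05). The sodium-glucose cotransporter Slc5a1 went from 9.0, 8.98, 8.81 and 8.51 to 11.33, 11.17, 11.12 and 11.29 (5.30-fold, SE 0.14, limma adjusted p = 2.15e-06). Both genes moved far beyond the spread of either group. Slc6a14, a sodium- and chloride-driven carrier of most amino acids, rose 4.75-fold, the sugar carrier Slc2a6 4.07-fold and the monocarboxylate carrier Slc16a7 3.78-fold. Named after its values were seen, the facilitative glucose carrier Slc2a12 fell, from 8.60, 7.99, 8.16 and 8.49 to 6.86, 7.28, 6.84 and 7.18 (2.41-fold, limma adjusted p = 4.26e-04). The subunits of the epithelial sodium channel at the head of the list stayed uncalled, Scnn1a at a log2 fold-change of 0.58 and Scnn1b at 0.56.

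Of 9 aquaporins, 3 fell and 1 rose. Aqp8, which passes water and also hydrogen peroxide, showed the largest change, from 8.80, 8.76, 9.91 and 9.32 in controls to 6.62, 6.87, 6.61 and 6.74 after mating (5.60-fold lower, SE 0.29, limma adjusted p = 1.99e-04). Aqp5, an apical water channel of glands, read 10.68, 10.17, 11.18 and 10.90 against 9.78, 9.77, 9.83 and 9.78 (1.92-fold lower). Aqp4 went the other way, from 8.56, 7.96, 9.0 and 8.80 to 9.58, 9.61, 9.40 and 9.36 (1.88-fold higher, limma adjusted p = 0.00866). Aqp1, mostly a channel of vessels and red cells, fell 1.91-fold, but its call was lost in 8 alternative settings, among them those without control arrays 1 and 2, without intact array 1, 2 or 3, with replicate numbers as blocks and without variance moderation.

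**Figure D3:**
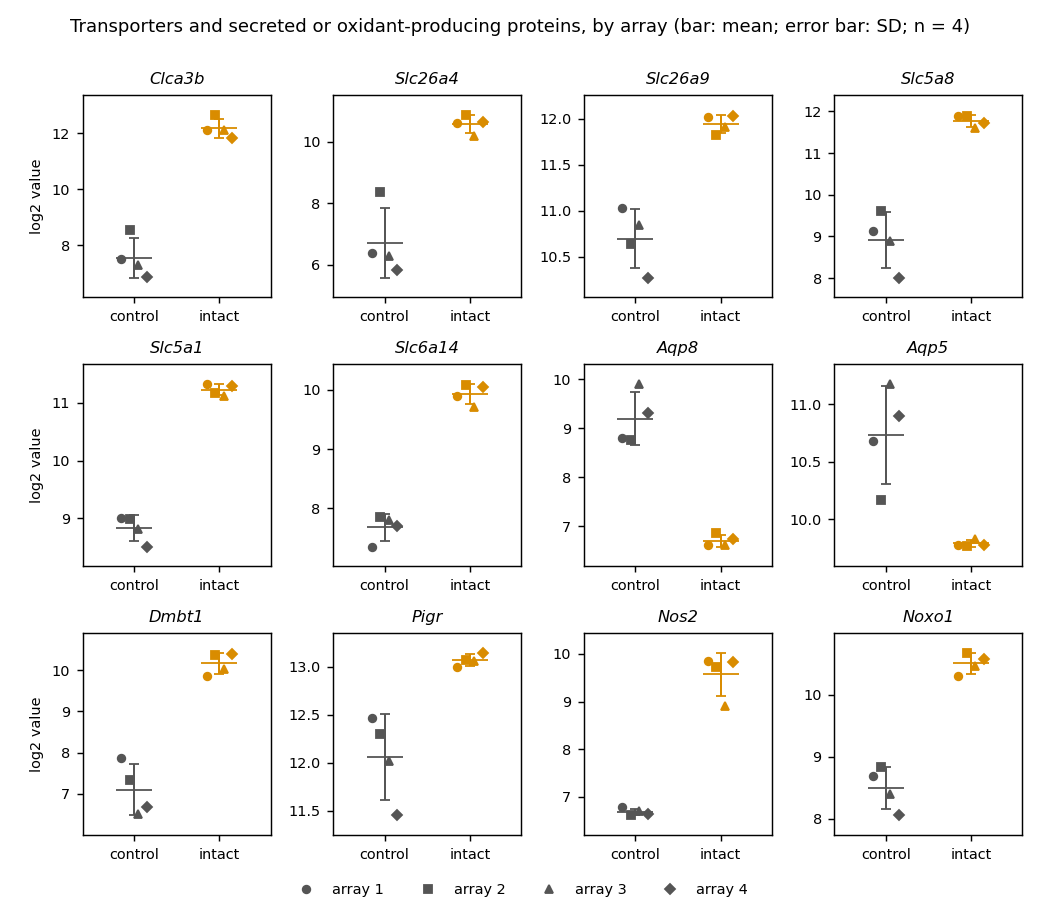
Log2 values of 12 genes on each control and intact array, with the mean as a bar, the SD as an error bar and a marker shape for each array number (n = 4 per group). In all 12 panels the intact arrays lie to one side of the controls, lower for Aqp8 and Aqp5 and higher for the other 10.

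Of 20 genes for mucins and surface secretions 6 rose, and the list median was 0.08. Dmbt1, a secreted scavenger protein that binds bacteria, went from 7.86, 7.33, 6.51 and 6.68 to 9.87, 10.38, 10.04 and 10.39 (8.42-fold, SE 0.27, limma adjusted p = 2.09e-05). Pigr, the receptor that carries antibodies into the lumen, read 12.47, 12.30, 12.02 and 11.45 in controls and 13.07 ± 0.06 (mean and SD, n = 4) in the intact group, without overlap (2.01-fold). Muc13 rose 2.05-fold and Muc2 1.64-fold, whereas Muc1 and Muc4, the membrane mucins at the head of the list, stayed below the fold threshold at log2 fold-changes of 0.32 and 0.47.

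Antimicrobial proteins rose in 13 of 24, with a median of 0.70. Chil1, a chitinase-like protein of inflamed epithelium, read 8.54, 9.47, 8.99 and 8.40 in controls and 12.63, 13.31, 12.39 and 13.15 after mating (16.2-fold, SE 0.29, limma adjusted p = 7.09e-06). The acute-phase protein Saa3 read 6.29, 5.98, 6.58 and 6.29 against 7.95, 9.09, 8.92 and 8.96 (5.44-fold). In both, the lowest intact array exceeded the highest control. Lcn2, which withholds siderophore iron from bacteria, and lactoferrin (Ltf) already read 13.93 to 14.12 and 13.02 to 13.40 in controls, and their log2 fold-changes of 0.14 and 0.49 were not called. Within the complement list C2 rose 3.01-fold and factor B (Cfb) 1.89-fold. Of 19 complement genes 3 rose. The number was 5, with a median of 0.49, without control arrays 1 and 2, while 2 rose and 2 fell, with a median of 0.04, without control arrays 3 and 4, and the other, Serping1, lost its call in 6 alternative settings.

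Genes that move metals rose in 9 of 22. Steap1, of a family of metalloreductases, went from 8.36, 8.77, 8.26 and 7.79 to 10.20, 10.19, 10.05 and 10.17 (3.63-fold, limma adjusted p = 2.09e-05). Steap4 rose 2.87-fold and Steap2 2.36-fold, although a second cluster of Steap2 was not called. The zinc importer Slc39a6 read 8.74, 9.09, 9.14 and 8.96 in controls and 10.81, 10.53, 10.40 and 10.77 after mating (3.12-fold), and Meltf, a surface protein that binds iron, rose 2.31-fold.

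Of 32 genes that produce oxidants or protect from them, 5 rose and 6 fell. The inducible nitric oxide synthase Nos2 read 6.77, 6.61, 6.69 and 6.63 in controls and 9.85, 9.72, 8.90 and 9.83 after mating (7.48-fold, SE 0.29, limma adjusted p = 5.60e-05). The superoxide-producing oxidase Nox1 read 5.31, 5.76, 5.64 and 5.45 against 7.20, 7.77, 7.17 and 7.44 (3.62-fold). Its organizer Noxo1 rose 4.03-fold and its activator Noxa1 2.51-fold. Against the vasectomized group Nox1 was 1.55 higher on the log2 scale (limma intact minus vasectomized, called) and the vasectomized group differed from controls by 0.30 (not called). Among genes that remove oxidants, the quinone reductase Nqo1 fell from 6.72, 6.94, 7.42 and 7.87 to 6.07, 6.15, 6.02 and 6.07 (2.23-fold, limma adjusted p = 0.00187). Named after their values were seen, the cystine carrier Slc7a11 fell 1.69-fold, catalase (Cat) fell 1.59-fold, Gpx1 1.54-fold and Gclm 1.51-fold. Slc7a11 lost its call without control arrays 1 and 2, and Cat, Gpx1 and Gclm lost theirs without control arrays 3 and 4. Not every protective gene fell. Gsta4, also named after its values were seen, was called higher at a log2 fold-change of 0.78, but not without control arrays 1 and 2.

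Proteins of the cornified envelope, which toughens surface epithelia, rose in 8 of 26 and fell in 3. Sprr2b read 9.63, 9.65, 9.40 and 9.29 in controls and 12.77, 12.93, 12.40 and 12.08 in the intact group (8.29-fold, SE 0.16, limma adjusted p = 1.50e-06). Sprr2d followed at 7.78-fold and Sprr2e at 2.97-fold, but members of this family are similar in sequence and may share probes. Zfp750 and Grhl3, transcription factors of barrier formation, rose 2.77-fold and 2.43-fold. Sprr1a, also in this family of proline-rich proteins, was not called (log2 fold-change -0.16), and Krt84 fell 2.61-fold. Junction and adhesion genes moved both ways, 4 higher and 4 lower of 28. Itga2, a collagen-binding integrin, rose 2.31-fold from 10.84 ± 0.11 to 12.04 ± 0.10 (mean and SD, n = 4), without overlap. The desmosomal Dsc2 fell 2.17-fold and the hemidesmosomal Itgb4 1.79-fold. Claudins Cldn3 and Cldn4, with log2 fold-changes of 0.10 and 0.33, were not called, and the count of genes that fell was 2 under 5 of the other settings, among them the one without control arrays 1 and 2.

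Genes of the NF-κB pathway, in which degradation of inhibitors frees transcription factors that then switch on those inhibitors again, rose in 15 of 28 and fell in 1 (median 0.73). Tnfaip2, an NF-κB target whose product shapes membrane protrusions, went from 7.50, 8.59, 7.22 and 7.50 to 11.29, 11.73, 11.47 and 11.72 (14.4-fold, SE 0.34, limma adjusted p = 2.10e-05). The ubiquitin-binding inhibitor Tnip3 rose 10.9-fold and the ubiquitin-editing enzyme Tnfaip3 6.49-fold. Zc3h12a, an RNase that degrades cytokine transcripts, read 8.34, 8.49, 8.33 and 7.97 against 10.21, 10.22, 10.09 and 10.33 (3.81-fold, limma adjusted p = 1.50e-06). The sequence GGANNTTCC (N any base), a core of sites bound by NF-κB, was searched on both strands of RefSeq promoters in build GRCm38.p6, from 250 bases before to 50 after the start. It stood in 22.9% of the 35 promoters of list genes and in 4.26% of all 32851 promoters, or 14.3% and 2.12% with 100 bases before the start. Of the called genes, Tnfaip2 had the largest change with such a match. Its 250 bases before the start on the plus strand, chr12:111442411-111442660, are shown because the match lies 87 bases before the start, with its letters in capitals.
Tnfaip2: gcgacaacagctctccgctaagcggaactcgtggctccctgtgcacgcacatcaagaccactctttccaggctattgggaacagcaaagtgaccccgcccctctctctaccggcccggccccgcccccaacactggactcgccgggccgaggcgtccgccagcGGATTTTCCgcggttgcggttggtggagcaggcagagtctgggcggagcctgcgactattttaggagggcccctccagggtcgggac

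Sensors of microbes rose in 7 of 25 and fell in 1. Nod2, which senses cell-wall peptides, rose 3.70-fold, and Cd14, which hands lipopolysaccharide to Tlr4, went from 9.96, 10.05, 10.21 and 9.93 to 11.52, 11.84, 11.45 and 11.77 (3.04-fold, limma adjusted p = 4.65e-06). Tlr4 itself was not called (log2 fold-change -0.25, SE 0.10, limma adjusted p = 0.140), and Tlr1 fell 1.84-fold. Interferon-induced genes rose in 14 of 35 (median 0.55), and 23 rose without control arrays 3 and 4. Gbp5, a GTPase of defense against intracellular microbes, read 6.52, 6.40, 6.07 and 5.87 in controls and 7.74, 7.98, 7.41 and 8.07 after mating (3.01-fold, SE 0.24). Rsad2, an antiviral enzyme, rose 2.60-fold, while Ifit1 at the head of the list stayed just below the fold threshold at 0.57. The core TTCNNTTTC of the interferon-stimulated response element stood in 45.2% of 31 promoters of the list and 8.56% of all promoters, or 29% and 4.04% with 100 bases before the start. Gbp5, on the plus strand at chr3:142496684-142496933, had the largest change among called genes with a match, which begins 164 bases before the start and is in capitals.
Gbp5: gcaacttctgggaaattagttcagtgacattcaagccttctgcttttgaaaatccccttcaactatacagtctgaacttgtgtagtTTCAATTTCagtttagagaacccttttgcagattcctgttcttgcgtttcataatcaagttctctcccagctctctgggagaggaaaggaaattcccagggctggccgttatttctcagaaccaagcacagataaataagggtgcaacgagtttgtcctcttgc

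Antigen presentation showed 6 of 25 genes higher, with B2m, the common light chain of class I molecules, at a log2 fold-change of 0.12 and H2-Ab1, a class II chain, at -0.09, neither called. Without control arrays 3 and 4, 8 genes of this list rose and 2 fell. H2-Ab1 changed sign with the controls kept, from 0.78 without arrays 1 and 2 to -0.96 without arrays 3 and 4, called in neither. Cd40 and Cd274, surface proteins that stimulate and restrain T cells, rose 2.01-fold and 1.96-fold. Of 18 leukocyte adhesion genes 3 rose and 1 fell. Icam1, the ligand to which leukocyte integrins bind, went from 8.32, 8.46, 7.83 and 7.61 to 9.71, 9.89, 9.60 and 10.12 (3.42-fold, limma adjusted p = 2.25e-04), and Vcam1 was not called, at 0.20, but was called higher at 0.83 without control arrays 1 and 2 (limma adjusted p = 0.00626). Cytokines and chemokines, not described in detail here, had 32 of 92 members higher and 2 lower, or 6 lower without control arrays 3 and 4.

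Cholesterol synthesis rose against both other groups. Against controls 9 of 20 genes rose in the intact group (median 0.57), while the median difference of the vasectomized group from controls was -0.30. Intact arrays were higher than vasectomized arrays in 15 of 20 genes. Over all genes, the intact group was called higher than the vasectomized group in 0.627% and lower in 0.271%. Both comparisons use the same intact arrays. Mvd, a decarboxylase of the mevalonate pathway, read 8.36, 8.55, 8.93 and 9.16 in controls and 10.03, 10.23, 9.88 and 10.38 after mating (2.60-fold, SE 0.18, limma adjusted p = 4.02e-04). Cyp51, which demethylates lanosterol, read 8.80, 9.19, 9.42 and 9.95 against 10.47, 10.76, 10.19 and 10.63 (2.26-fold). In both genes the controls spread widely, with array 1 lowest and array 4 highest. Hsd17b7, which acts in cholesterol synthesis and also makes estradiol from estrone, rose 2.89-fold. Without control arrays 1 and 2 only 3 members kept a call against controls, and without control arrays 3 and 4 there were 15. The count of 15 against the vasectomized group was the same with either pair of controls left out, but fell to between 5 and 8 without intact array 2 or 4, without vasectomized array 3 or 4, with replicate numbers as blocks or without variance moderation.

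Hmgcs1, which makes the first committed precursor of sterols, read 9.31, 9.79, 9.62 and 10.33 in controls and 10.74, 10.95, 10.59 and 10.80 in the intact group (2.01-fold, SE 0.22, limma adjusted p = 0.0130), and lost its call without control arrays 1 and 2. Its promoter was the only one of the list that held TCACNCCAC, a form of the sterol regulatory element at which SREBP factors bind. That sequence was in 1 of 19 promoters of the list (5.26%) and 1.24% of all promoters, and with 100 bases before the start in 0% and 0.618%. The 250 bases lie on the plus strand at chr13:119690101-119690350, and the match begins 137 bases before the start.
Hmgcs1: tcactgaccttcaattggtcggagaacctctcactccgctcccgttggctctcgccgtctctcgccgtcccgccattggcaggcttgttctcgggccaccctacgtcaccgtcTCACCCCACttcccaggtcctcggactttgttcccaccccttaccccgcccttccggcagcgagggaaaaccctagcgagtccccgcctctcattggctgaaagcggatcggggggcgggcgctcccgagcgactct

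Fatty acid synthesis and storage followed with 7 of 20 higher and 1 lower. Mgll, which splits monoacylglycerols, rose 2.04-fold, and Lpin1, a phosphatase that makes diacylglycerol, 1.96-fold, from 8.47, 7.99, 8.05 and 8.39 to 9.13, 9.36, 8.97 and 9.34. Fasn and Scd1, the synthase and desaturase at the head of the list, were not called, at 0.38 and 0.27. Fatty acid oxidation had 3 higher and 2 lower of 21, or 1 lower without control arrays 1 and 2. Pdk4, which diverts pyruvate from oxidation, fell from 7.96, 7.89, 7.83 and 7.56 to 6.41, 6.46, 6.81 and 6.87 (2.25-fold, limma adjusted p = 4.28e-04). This fall was seen against the vasectomized group as well, at -1.0 on the log2 scale, whereas that group differed from controls by -0.17.

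Genes of glycolysis and the response to low oxygen rose in 10 of 27 (median 0.52), and 26 of the 27 had positive log2 fold-changes. Adm, the vasodilator peptide adrenomedullin, went from 9.36, 8.85, 9.31 and 8.85 to 10.41, 10.53, 10.45 and 10.60 (2.64-fold, limma adjusted p = 1.72e-05). The oxidoreductase Ero1a rose 2.27-fold and hexokinase 2 (Hk2) 2.05-fold, and the lactate exporter Slc16a3 rose 2.00-fold from 9.33, 9.07, 9.68 and 9.31 to 10.31, 10.40, 10.30 and 10.40. Transcript of Hif1a, whose protein is regulated mainly by its breakdown, was not called (log2 fold-change -0.13). Of 24 oxidative phosphorylation genes 0 were called in limma, with 4 at an unadjusted p under 0.05 and 0 called without variance moderation.

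The unfolded protein response rose in 4 of 25 genes. Creb3l1, a membrane-bound transcription factor of secretory cells, read 9.56, 9.82, 9.17 and 9.31 against 10.63, 10.82, 10.67 and 11.02 (2.49-fold, limma adjusted p = 4.93e-05). Herpud1 rose 2.13-fold and Stc2 2.11-fold, while the central chaperone Hspa5 and the factor Xbp1 stayed uncalled at 0.17 and 0.40. Heat shock genes moved the other way, with 4 of 16 lower. The small heat shock protein Hspb1 fell from 11.85, 11.49, 11.64 and 12.02 to 10.31, 10.51, 10.35 and 10.35 (2.58-fold, SE 0.12, limma adjusted p = 2.92e-05). Only 2 of the 4 kept a call without control arrays 1 and 2, and Hspb1 was one of them.

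Of 22 steroid receptor and estrogen response genes 7 fell and 4 rose. Esr1, the main uterine estrogen receptor, read 12.44, 12.32, 12.46 and 12.39 in controls and 12.33, 12.12, 12.22 and 12.21 after mating, with overlapping groups (log2 fold-change -0.18, SE 0.06, limma adjusted p = 0.0764). Greb1, a coactivator induced by estrogen, went from 10.87, 10.13, 10.85 and 10.94 to 7.95, 8.41, 8.12 and 8.21 (5.75-fold lower, SE 0.17, limma adjusted p = 4.65e-06). Pgr, the progesterone receptor and itself an estrogen target, read 10.38, 10.48, 9.94 and 10.09 against 8.31, 8.38, 7.97 and 8.25 (3.99-fold lower, SE 0.19). For Greb1 and Pgr the gap between the groups was more than 1.5 log2 units at its narrowest. Igf1, the growth factor by which stroma relays estrogen to epithelium, read 9.14, 10.10, 8.47 and 9.14 in controls and 7.26, 7.61, 7.90 and 7.89 in the intact group (2.93-fold lower). Padi4 and Padi2, deiminases that estrogen induces in the uterus, fell 2.07-fold and 1.93-fold. Among the 4 that rose was Wnt4, at 1.63-fold. Without control arrays 1 and 2, 6 rose and 6 fell, and without control arrays 3 and 4, 2 rose and 6 fell. With control array 3 alone left out, 2 rose.

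In the list of progesterone response and implantation regulators 5 of 22 fell, or 8 without control arrays 3 and 4. Hsd11b2, which inactivates glucocorticoids, had the largest fall, from 11.85, 10.99, 10.90 and 10.63 to 8.95, 9.42, 9.64 and 9.83 (3.10-fold, SE 0.25, limma adjusted p = 0.00139). Zbtb16, a transcription factor induced by progesterone and glucocorticoids, fell 2.30-fold and Lifr, the receptor of the implantation cytokine LIF, 2.08-fold. Ihh and Hand2, the epithelial signal and the stromal factor of progesterone action, were not called at -0.33 and -0.51.

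Steroid and retinoid metabolism had 6 of 25 genes lower and 2 higher. Adh1 went from 11.24, 11.56, 10.86 and 11.09 to 8.42, 8.85, 9.12 and 9.04 (5.02-fold lower, SE 0.24, limma adjusted p = 6.39e-05). The next enzyme in the route to retinoic acid, Aldh1a2, fell 3.68-fold, but missed the threshold without control arrays 1 and 2. The retinoic acid binding proteins Crabp2 and Crabp1 fell 3.05-fold and 2.74-fold. Crabp2 read 10.76, 10.71, 11.09 and 11.12 in controls, which did not follow the stromal split, and 9.42, 9.57, 9.03 and 9.22 after mating.

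**Figure D4:**
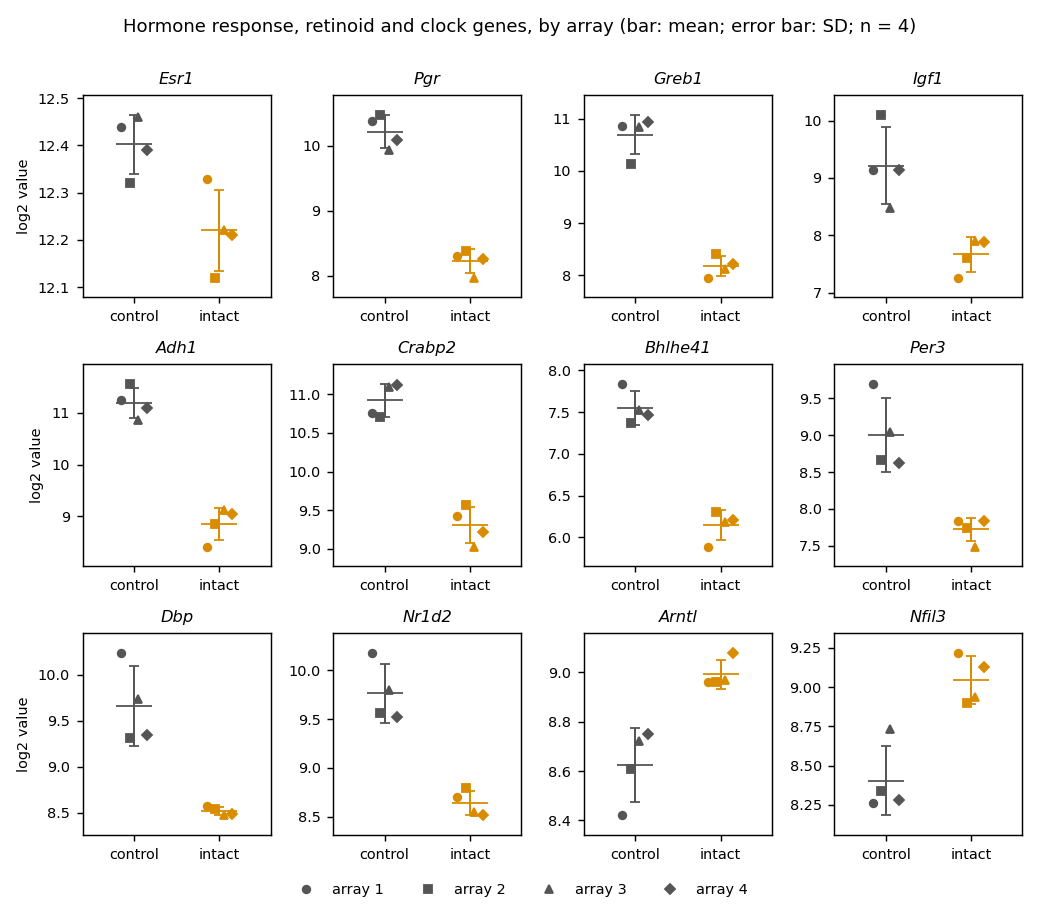
Log2 values of hormone response, retinoid and clock genes on each array (markers for array numbers, bar for the mean, error bar for the SD, n = 4 per group; each panel has its own y axis). Esr1 overlaps between groups, Arntl and Nfil3 are higher after mating and the other 9 are lower without overlap.

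The circadian clock is a loop in which Clock and its partner Arntl (also called Bmal1) switch on their own repressors, the Per and Cry genes, and output factors such as Dbp and Tef. In this list 9 of 19 genes fell and 1 rose, and the list mean was 8.59 to 9.06 in controls and 8.23 to 8.30 in the intact group. Per3 read 9.70, 8.66, 9.05 and 8.62 in controls and 7.83, 7.74, 7.49 and 7.83 in the intact group (2.43-fold lower, SE 0.23, limma adjusted p = 0.00379). Dbp, an output factor that binds D-boxes, read 10.24, 9.31, 9.74 and 9.34 against 8.57, 8.54, 8.47 and 8.49 (2.20-fold lower). Among controls array 1 was highest in both, and the intact arrays lay close together. The repressor Bhlhe41 fell 2.65-fold, Wee1, a kinase that holds back mitosis and is clock-controlled, 2.31-fold, the repressor Nr1d2 2.19-fold and Tef 1.92-fold. Per2, Usp2, Per1 and Nfil3 were named after their values were seen. Per2 fell 1.82-fold, the deubiquitinase Usp2 1.69-fold and Per1 1.54-fold. Usp2 and Nfil3 lost their calls without control arrays 1 and 2, and Per1 without control arrays 3 and 4. Nfil3, the 1 gene that rose, competes with Dbp for D-boxes, and went from 8.26, 8.34, 8.73 and 8.28 to 9.22, 8.90, 8.94 and 9.13 (1.56-fold). Of the activators, Arntl had a log2 fold-change of 0.37 (SE 0.07, limma adjusted p = 0.00671), below the fold threshold and with no overlap, and Clock one of -0.29, not called. In all 10 genes called the groups did not overlap, which also held for 901 of the 976 genes called over the whole array. In the vasectomized group 8 of the 19 were called lower than in the same controls, where 0.657% of all genes were. Both mated groups were collected at another hour than controls.

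The E-box CACGTG, bound by Clock and Arntl and by other factors, stood in 28.6% of the 21 promoters of list genes and in 7.15% of all promoters, and the D-box TTATGTAA in 4.76% and 0.938%. With the window shortened to 100 bases before the start, the list shares were 9.52% and 0%, against 4.35% and 0.493% of all promoters. Bhlhe41 had the largest change among called genes with an E-box, which begins 153 bases before its start (minus strand, chr6:145865421-145865670). Per3 was the called gene with D-boxes, which begin 205 and 158 bases before its start (minus strand, chr4:151044666-151044915). Capitals mark these matches.
Bhlhe41: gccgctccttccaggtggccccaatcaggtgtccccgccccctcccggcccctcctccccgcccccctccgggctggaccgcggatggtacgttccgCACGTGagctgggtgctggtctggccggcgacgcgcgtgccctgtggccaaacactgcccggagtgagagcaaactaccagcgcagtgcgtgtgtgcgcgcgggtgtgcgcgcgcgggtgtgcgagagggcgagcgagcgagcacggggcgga
Per3: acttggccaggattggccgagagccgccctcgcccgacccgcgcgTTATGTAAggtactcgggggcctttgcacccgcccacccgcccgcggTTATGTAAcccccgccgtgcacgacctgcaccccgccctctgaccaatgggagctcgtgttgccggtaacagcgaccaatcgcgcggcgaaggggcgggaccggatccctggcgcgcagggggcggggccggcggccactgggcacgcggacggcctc

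Mitosis had the largest share of called genes of the 58 lists. All 35 measured mitosis genes had negative log2 fold-changes, 33 were called lower, and their median was -1.78. Mki67, a coat protein of mitotic chromosomes used as a marker of proliferation, read 8.27, 10.35, 9.02 and 10.50 in controls and 6.67, 8.11, 6.51 and 7.0 in the intact group (5.52-fold lower, SE 0.49, limma adjusted p = 0.00689). Nusap1, a spindle protein, read 7.31, 9.04, 8.01 and 9.39 against 5.78, 6.88, 5.78 and 6.20 (4.84-fold lower). In both genes control arrays 2 and 4 were high and arrays 1 and 3 low, and intact array 2 was the highest of its group. The whole list had that shape. Its mean was 7.47, 9.15, 8.10 and 9.39 on control arrays 1 to 4, and 6.56, 7.40, 6.57 and 6.64 on intact arrays 1 to 4. Control array 1 thus lay just above intact array 2. In 24 of the 33 called genes the groups did not overlap, a smaller share than the 901 of 976 genes called over the whole array. Cdk1, the kinase that starts mitosis, had a log2 fold-change of -1.54 (SE 0.39, limma adjusted p = 0.0262) with overlapping groups, and lost its call in 8 alternative settings. Bub1 of the spindle checkpoint had the largest difference in the list, -2.57, also with overlap (limma adjusted p = 0.0176), and lost its call in 5 settings, among them that without control arrays 3 and 4. Top2a, which untangles DNA, had -2.27, but lost its call in 7 settings, and a second cluster of the gene had -0.55 and was not called. The number called lower was 21 without control arrays 3 and 4, 34 without control arrays 1 and 2, and 17 of 18 once dim clusters were removed. Each of these pairs holds a control array that was high for this list and a low one. Neither setting therefore shows the list without both control arrays 2 and 4.

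Genes of DNA replication shared the direction but not the size. Of 33, 31 had negative log2 fold-changes (median -0.51) and 6 were called, and between 1 and 10 when single arrays were left out. Their list mean was 7.61, 8.55, 7.78 and 8.47 in controls and 7.31, 8.12, 7.35 and 7.43 after mating, so intact array 2 lay among the controls. Rrm1, a subunit of the enzyme that makes deoxynucleotides, read 9.31, 10.56, 9.65 and 10.59 against 8.66, 9.37, 8.63 and 8.58 (2.32-fold lower, limma adjusted p = 0.0135). The helicase subunit Mcm2 and the sliding clamp Pcna, first in the list, were not called, at -0.55 and -0.44. In the vasectomized group 2 of 35 mitosis genes and 4 of 33 replication genes were called lower than in the same controls, against 0.657% of all genes, and the list medians there were -1.20 and -0.64.

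Promoters of mitosis genes carry an element known as the CHR, TTTGAA, and CCAAT boxes, through which the DREAM and NF-Y complexes act. TTTGAA stood in 78.8% of the 33 promoters of list genes and in 17.9% of all promoters, and CCAAT in 72.7% and 37.4%, each on either strand. With 100 bases before the start the shares were 75.8% and 8.01% for TTTGAA and 63.6% and 23.4% for CCAAT. The promoter of Mki67, on the minus strand at chr7:135716380-135716629, had both and the largest change among called genes with TTTGAA. Its TTTGAA matches begin 116 and 98 bases before the start and its CCAAT matches, 1 of them read on the other strand as ATTGG, 188, 166 and 141 bases before it.
Mki67: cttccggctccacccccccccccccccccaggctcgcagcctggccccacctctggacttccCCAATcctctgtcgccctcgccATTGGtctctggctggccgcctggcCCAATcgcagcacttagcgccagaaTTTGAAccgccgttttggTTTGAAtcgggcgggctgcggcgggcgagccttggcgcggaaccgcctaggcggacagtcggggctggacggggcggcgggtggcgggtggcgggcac

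**Figure D5:**
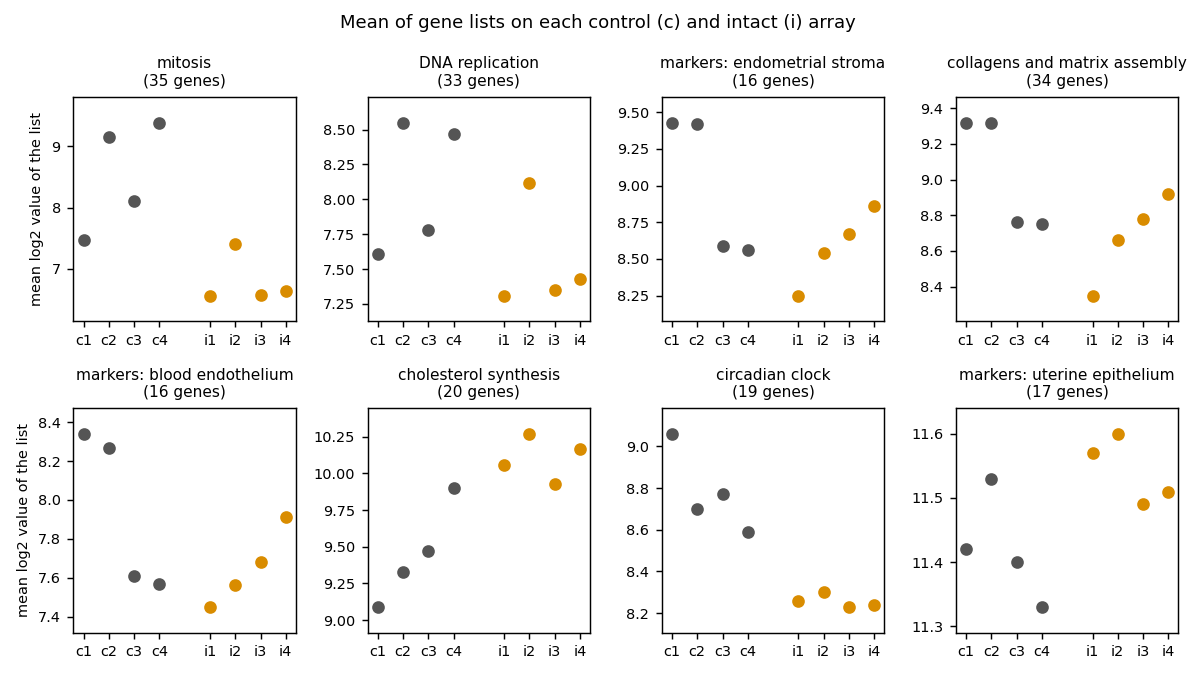
Mean log2 value of the measured genes of 8 lists on each control array (c1 to c4, gray) and each intact array (i1 to i4, orange). Mitosis and replication split the controls into arrays 2 and 4 against 1 and 3, stroma, collagen and endothelium into 1 and 2 against 3 and 4, and for the mitosis, clock and cholesterol lists all 4 intact arrays lie to one side of the controls.

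Among 34 genes for collagens and their assembly 11 fell and 2 rose, and the number that fell was 19 without control arrays 3 and 4 and 2 without control arrays 1 and 2. The number that rose was then 0 and 5. Col6a3, a chain of the microfibrillar collagen VI, kept its call in all 26 alternative settings, with 11.13, 10.88, 10.60 and 10.49 in controls and 8.94, 9.34, 9.30 and 9.58 after mating (2.81-fold lower, SE 0.19, limma adjusted p = 4.23e-04). Pcolce2, which helps the processing of procollagen, was another, at 9.15, 8.96, 8.75 and 9.34 against 8.0, 7.79, 7.85 and 7.70 (2.32-fold lower). Col1a1 fell 1.68-fold and lost its call in 13 alternative settings. Stromal markers themselves had 2 of 16 lower, 11 without control arrays 3 and 4 and 0 without control arrays 1 and 2 (limma in each). Among matrix-degrading enzymes and their inhibitors 4 of 24 fell and 1 rose, with a median of 0.02. Without control arrays 3 and 4, 7 fell and 2 rose (median -0.36), and without control arrays 1 and 2, 4 fell and 6 rose (median 0.22), so the balance of this list depended on the controls kept. Mmp2 and Mmp7, first in that list, were not called, but without control arrays 3 and 4 Mmp2 was called lower, at -1.64, and without control arrays 1 and 2 Mmp7 was called higher, at 1.04. Adam28 rose 2.14-fold from 8.70, 8.81, 8.71 and 8.65 to 9.81, 9.91, 9.79 and 9.77 (limma adjusted p = 4.65e-06).

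Genes for vascular tone and growth rose in 6 of 27 and fell in 2, the latter being 5 without control arrays 3 and 4 (list median -0.24) and 1 without control arrays 1 and 2 (0.14). Plaur, the receptor that holds urokinase at the cell surface, rose 2.67-fold, and Edn1, the vasoconstrictor endothelin, went from 10.11, 9.82, 9.67 and 8.96 to 10.80, 11.06, 10.88 and 10.82 (2.37-fold, limma adjusted p = 9.68e-04). Flt1, a receptor that captures VEGF, rose 2.10-fold and Vegfa itself 1.71-fold. Of 22 prostaglandin genes 5 rose and 1 fell. Ptgs2, the inducible cyclooxygenase, read 10.92, 11.19, 10.24 and 9.14 in controls and 13.13, 13.19, 12.87 and 13.04 after mating (6.43-fold, SE 0.36, limma adjusted p = 4.48e-04). Ltc4s, which makes leukotriene C4, rose 2.03-fold.

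In Notch signaling, 1 of 19 rose and 1 fell. Hey1, a repressor switched on by Notch, read 8.01, 8.40, 7.42 and 7.75 in controls and 10.18, 10.28, 9.84 and 10.20 after mating (4.69-fold, SE 0.21, limma adjusted p = 3.06e-05), while the ligand Dll4 fell 1.89-fold and Hes1, another target, stayed just below the fold threshold at -0.57. Among 29 Wnt genes 4 rose and 2 fell, or 8 fell without control arrays 3 and 4. The ligand Wnt5a fell from 10.65, 10.60, 10.48 and 10.52 to 9.43, 9.58, 9.46 and 9.54 (2.09-fold, limma adjusted p = 2.46e-04), and Wnt7b rose 1.89-fold from 8.56, 8.76, 8.58 and 8.75 to 9.65, 9.54, 9.52 and 9.60. Lgr6, a receptor of Wnt-boosting R-spondins, fell 2.19-fold and the receptor Fzd7 rose 2.09-fold. Of 30 genes of the TGF-β family 3 rose and 4 fell, or 1 and 7 without control arrays 3 and 4. Ltbp2, which binds fibrillin in the matrix, rose 3.28-fold and Tgfb3 fell 2.44-fold, from 9.22, 8.69, 9.88 and 9.25 to 7.72, 8.06, 8.16 and 7.97. EGF family and MAPK feedback genes rose in 3 of 26, led by Rhbdf1 at 2.12-fold, with Egfr not called.

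Immediate early genes, which answer stimuli within minutes, rose in 5 of 28 at this hour, or 9 without control arrays 1 and 2 and 3 without control array 4. Fos went from 8.97, 9.03, 9.08 and 9.22 to 9.90, 9.85, 9.97 and 9.96 (1.79-fold, limma adjusted p = 1.27e-05), and Egr1 was not called, its controls reading 8.77, 8.95, 7.69 and 7.82. Without control arrays 1 and 2 Egr1 was called higher, at 0.91, and without control arrays 3 and 4 its log2 fold-change was -0.19. Sik1, a kinase induced by cAMP, rose 2.07-fold. Polyamine and creatine genes had 3 of 14 higher and 1 lower. Smox, which oxidizes spermine and releases hydrogen peroxide, read 11.12, 11.20, 11.01 and 10.97 against 12.19, 12.19, 12.18 and 12.30 (2.20-fold, limma adjusted p = 3.26e-06), while Odc1, the first enzyme of the route, was not called. Among 18 genes of apoptosis and survival 3 rose and 1 fell. The death receptor Fas rose 2.18-fold and the p53 target Trp53inp1 fell 1.95-fold.

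Markers of neutrophils rose in part. Of 18 measured 6 rose and 1 fell, and the list mean was 6.80 to 6.90 in controls and 7.12 to 7.44 in the intact group. Cxcr2, the receptor that guides neutrophils to chemokines such as Cxcl1, read 4.89, 5.16, 5.04 and 5.08 in controls and 6.55, 7.78, 7.22 and 7.58 after mating (4.74-fold, SE 0.26, limma adjusted p = 1.62e-04). S100a9, of the calprotectin complex, read 5.99, 5.73, 5.94 and 5.91 against 6.73, 8.10, 7.02 and 7.41 (2.69-fold), and Csf3r, the receptor of granulocyte colony-stimulating factor, rose 2.20-fold. Clec4d, Trem1 and, named after its values were seen, Il1r2 completed the 6. All 6 were also called higher than in the vasectomized group, as were 0.627% of all genes. Both comparisons use the same intact arrays, so the second call is not independent of the first. In the vasectomized group none of the 6 had a log2 difference from controls above 0.32. The count of 6 higher than in the vasectomized group was 3 without variance moderation, without intact array 4 or without vasectomized array 3. These signals were dim, and once clusters below the median level were removed only 3 of the 18 markers were left, 0 of them higher in limma. Ly6g, a surface marker of neutrophils, was not called (log2 fold-change -0.44). Its controls read 9.60, 9.32, 10.48 and 10.67, against 9.63, 9.54, 9.56 and 9.56 in the intact group. Without control arrays 1 and 2 it was called lower. In controls the Ly6g cluster read far above those of Cxcr2 and S100a9, and whether it follows neutrophil number was not tested. By antibody staining for this marker, the paper reports a strong influx of neutrophils into the uterus after mating with intact males. Padi4, the 1 marker that fell, is also in the estrogen list.

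Of 17 cell type lists, 12 had 0 called members in limma, those of B cells, T and NK cells, macrophages, dendritic cells, blood and lymphatic endothelium, smooth muscle, uterine epithelium, fat, oviduct and ovary, sperm, and male accessory glands. Of their 176 members 37 had an unadjusted p under 0.05, and 0 were called without variance moderation. With a pair of controls left out, 7 of these 12 lists had calls. Without control arrays 3 and 4, 10 members fell, of which 3 were blood endothelium, 2 macrophage and 2 dendritic cell markers. Without control arrays 1 and 2, 5 rose, 3 of uterine epithelium and 2 of B cells. Of the 23410 clusters with a symbol, 800 were called lower in the first of these settings and 774 higher in the second. Prm1 and Prm2, protamines of sperm chromatin, had log2 fold-changes of 0.05 and 0.15, and the seminal vesicle gene Svs2 one of -0.15. The mast cell list had 1 gene higher, Hdc, which makes histamine, and its call was lost in 9 alternative settings. Squamous epithelium had 1 higher and 1 lower of 13 (Dsg3 and Krt13), and red cells and platelets 1 higher of 7 (Ppbp). Each of these 3 calls was lost without control arrays 1 and 2. Of 9 reference genes 0 were called in limma, with 2 at an unadjusted p under 0.05 and 0 called without variance moderation, and Actb had a log2 fold-change of -0.04.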

How the data were processed

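Endometrial RNA of 12 arrays, 4 per group, was hybridized to Affymetrix Mouse Gene 1.0 ST arrays. Each array held a pool of 4 females and started from 300 ng of RNA. The log2 values were deposited by the authors and had been made in Partek Genomics Suite, where the background was corrected by RMA, GC content was adjusted for and probes were summarized by their mean. The Partek version was not given in the sources used here. Background that remains in dim probes narrows their differences, and the number of arrays limits the precision.

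Values were used as deposited, and 0 columns were left aside. A mean per group was fitted to all 12 arrays in limma 3.58.1 (R 4.3.3) with moderated variances and Benjamini-Hochberg adjustment over all 35556 clusters. A cluster was called at 1.5-fold or more with an adjusted p not above 0.05. The procedure was tested on simulated data. P-values measure the spread between pools. Genes were read through their cluster with the highest mean and 1 symbol. The members and the 58 gene lists (1192 of 1289 genes measured) were chosen with earlier results of these data known. Named genes were drawn from the 15 largest changes each way outside the cytokines without overlap, the first 2 and up to 6 most changed genes of each list, and the promoter genes, and others are marked. Not all of these are given above. Uncalled first genes left out include Cpt1a, Bcl2, Hspa8 and Col3a1, with log2 fold-changes of 0.01, -0.10, -0.18 and -0.55. Promoter sequences came from RefSeq (GRCm38.p6). Alternatives changed the scaling, variance model, blocks, filters, thresholds and arrays included.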

Additional observations from a re-analysis of the deposited data

Results flagged for a closer look

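Among the named genes, 376 groups of 4 arrays were examined for an array far from the other 3, and 15 had one, where chance flags about 1 in 20 groups. Intact array 2 was high for 4 genes of division and replication, Knl1 at 7.21, Prc1 at 6.97, Rrm1 at 9.37 and Top2a at 8.15. Intact array 3 was low for Nos2 at 8.90 and Ltf at 13.71 and high for Aqp5 at 9.83. Intact array 4 was high for Arntl at 9.08 and Smox at 12.30, and intact array 1 low for Saa3 at 7.95. Among controls, array 1 was high for Lgr6 at 8.39, array 2 low for Greb1 at 10.13, array 3 high for Ltc4s at 7.22 and Nfil3 at 8.73, and array 4 low for Nod2 at 7.13.

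Of the 12146 clusters with no gene symbol, which the report does not describe, 85 were called higher (0.700%) and 79 lower (0.650%) in limma after mating with intact males than in controls.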

How the results depend on the processing

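The counts of 607 clusters higher and 471 lower depended most on the fold threshold. They were 218 and 188 when 2-fold change was required, and 1710 and 1328 with no fold threshold. Without control arrays 3 and 4 the number lower was 800. Leaving out single arrays gave 564 to 655 higher and 356 to 530 lower. The replicate numbers did not pair the arrays, since correlations of same-numbered deviations ran from -0.12 to 0.20, and with the number as a block 596 were higher and 474 lower. Over the 26 alternatives, no gene called here changed sign, and no gene changed sign and was called under that alternative. Among the 412 genes recomputed, 60 had log2 fold-changes of both signs, none of them called here. Genes that gained a call with 1 pair of controls left out include Vcam1, Egr1, Ly6g and Mmp2. Others were Lgr5, Emcn, Jchain, Kdr, C1qb, Clec9a, Cldn1 and Cldn4, and this list is not complete. Of 10623 recomputed gene values 290 lost and 120 gained a call, and 169 of 224 called genes were called under every alternative except the fold thresholds. For the lists whose counts moved most with the pair of controls left out, mitosis, collagens, stroma and cholesterol synthesis, the cause was not tested. Dim clusters, those below a mean of 7.28, limit the neutrophil markers.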
